A study of Mus musculus with 8 samples.

Results

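The genes described are 9 members of the Hippo pathway and its transcriptional output: the coactivator genes Yap1 and Wwtr1, the DNA-binding partners Tead1, Tead3 and Tead4, the kinases Lats1 and Lats2, the scaffold gene Amotl2 and the target gene Ankrd1. They were taken by name from a table of 54532 mouse genes, and all 9 were found there once. RNA had been sequenced from cardiac fibroblasts sorted by their PDGFRα, a receptor found on such cells, from mouse hearts taken 7 days after coronary occlusion. Of the 8 samples, 4 carried the genotype label FTbR2KO (fibroblast-specific loss of TbR2, the TGF-β type 2 receptor encoded by Tgfbr2) and 4 the label TbR2fl/fl (controls with the floxed gene). Mice of both groups had been given tamoxifen by intraperitoneal injection, and the sorted cells were neither cultured nor treated. The driver of the recombinase, the age of the mice and whether each sample was a separate animal are not stated in any source used here. The p-values therefore measure only how far these samples spread. Libraries are called by the numbers in their titles, 1 to 4 for FTbR2KO and 5 to 8 for TbR2fl/fl.

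The Hippo pathway is a kinase cascade that limits tissue growth. MST kinases activate the LATS kinases, which phosphorylate YAP and its paralogue TAZ (the product of Wwtr1) and so keep them out of the nucleus. When the cascade is off, for instance in spread cells on a stiff matrix, YAP and TAZ enter the nucleus, bind TEAD factors and switch on genes such as Ankrd1, Ctgf, Cyr61, Amotl2 and Lats2. LATS2 and AMOTL2 in turn restrain YAP and TAZ, so these targets close a feedback loop. In the heart, YAP and TAZ are known for driving the activation of fibroblasts after infarction. Much of this control acts on protein phosphorylation and location, which RNA levels do not measure.

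TEAD factors bind the letters GGAATG, which read CATTCC on the opposite strand and are known in muscle genes as the M-CAT element. Both forms were searched in windows from 250 bases before to 50 after each RefSeq transcription start (GRCm38.p6), and the 2 forms cannot overlap each other. Of the 9 members, 7 had a window in the table, and 6 of these held at least 1 match: Yap1, Wwtr1, Tead3, Lats2, Amotl2 and Ankrd1. Among all 27025 genes with a window, 16.6% held a match, and 14.7% of all 32851 windows did. The members had been chosen as a pathway, so this is a description of their sequences, and a match is not evidence of binding. The 250 bases before the start are shown for the target gene Ankrd1 and the coactivator genes Yap1 and Wwtr1, 5′ to 3′ on the gene's minus strand, with matches in capitals. They lie at chr19:36119845-36120094 for Ankrd1, chr9:8004597-8004846 for Yap1 and chr3:57575911-57576160 for Wwtr1, each directly before the first base of the deposited gene model.
Ankrd1: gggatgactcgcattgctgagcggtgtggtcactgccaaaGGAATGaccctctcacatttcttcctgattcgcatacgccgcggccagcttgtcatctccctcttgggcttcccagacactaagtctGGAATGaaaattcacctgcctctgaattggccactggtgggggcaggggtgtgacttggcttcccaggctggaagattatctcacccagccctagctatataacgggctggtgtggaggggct
Yap1: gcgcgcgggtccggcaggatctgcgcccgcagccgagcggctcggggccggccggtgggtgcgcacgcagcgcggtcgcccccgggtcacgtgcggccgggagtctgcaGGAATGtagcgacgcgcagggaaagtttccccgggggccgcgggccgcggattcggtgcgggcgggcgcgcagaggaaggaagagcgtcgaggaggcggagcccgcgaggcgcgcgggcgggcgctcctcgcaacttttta
Wwtr1: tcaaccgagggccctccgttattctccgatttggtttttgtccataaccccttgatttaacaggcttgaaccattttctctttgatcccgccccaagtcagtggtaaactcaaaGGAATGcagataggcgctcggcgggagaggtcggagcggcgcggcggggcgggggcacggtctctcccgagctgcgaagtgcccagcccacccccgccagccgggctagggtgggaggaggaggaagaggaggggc
The matches of Ankrd1 begin 210 and 123 bases before the start, that of Yap1 141 and that of Wwtr1 136 bases before it. The feedback genes Amotl2 and Lats2 and the target Cyr61 are shown by the 30 bases around their match. These lie at chr9:102717727-102717756 (plus strand, match 65 bases before the start), chr14:57746102-57746131 (minus strand, 5 bases after it) and chr3:145650071-145650100 (minus strand, 103 bases before it). The starts of Amotl2 and Lats2 used here lie inside the deposited gene models, which also hold longer transcripts.
Amotl2: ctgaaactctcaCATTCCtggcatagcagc
Lats2: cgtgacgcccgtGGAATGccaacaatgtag
Cyr61: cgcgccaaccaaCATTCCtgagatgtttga
No match was present in the window of Lats1, which says only that these letters are not in it.

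Depth was 16.1 to 22.9 M reads for FTbR2KO 1 to 4 and 21.2 to 28.7 M for TbR2fl/fl 5 to 8. Tgfbr2 itself measured 56.9 to 60.0 FPKM (fragments scaled to gene length and library depth) under the FTbR2KO label and 40.3 to 49.6 among the controls, the reverse of the label. A value for the whole gene cannot show whether an exon was deleted, so each direction is given by label only. On the main axis of variation over all genes (33.0% of the variance) FTbR2KO 1 and TbR2fl/fl 5 stood apart from the other libraries. All 11 fibroblast markers were expressed, with Pdgfra at 45.5 to 85.6 FPKM. Of 17 cardiomyocyte markers 13 stayed under 1 FPKM in every library, as did 8 of 13 macrophage and 7 of 11 endothelial markers. Genes were tested with limma on log2(FPKM + 1), for which folds of low genes are understated. Of 11667 genes with at least 1 FPKM in at least 4 samples, 2 rose in the libraries labelled FTbR2KO (Gpt2 and Prm1, adjusted p under 0.05; 0.0171% of those tested) and 0 fell. At an unadjusted p under 0.05 there were 1004 (8.61%), of which 436 lay higher and 568 lower.

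No Hippo member passed the threshold. Of the 9 members 8 could be tested, Tead4 being too low, and 0 of these 8 passed limma's adjusted threshold, also with limma's voom on reads recovered from the FPKM values. Their log2 fold changes ran from -0.17 for Tead3 to 0.38 for Ankrd1, with 6 above 0 and 2 below and a median of 0.11, against a median of -0.0045 and 48.8% above 0 over all genes tested. Only Lats1 had an unadjusted p under 0.05, where the share of all genes was 3.74% in that direction. These cells are a bulk sample, in which fewer cells of a type and less RNA per cell cannot be told apart. Longer genes lay higher in the libraries labelled FTbR2KO. The median log2 fold change over all genes rose from -0.096 in the shortest of 4 equal classes of gene length (up to 2390 bases) to 0.069 in the longest (from 6485 bases), where 74.0% of genes lay above 0. The longest class holds 5 of the 8 tested members: Yap1, Tead1, Tead3, Lats1 and Lats2. In that class 8.67% of genes lay higher at an unadjusted p under 0.05.

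Per gene length, the order of the mean levels over the 8 libraries was Wwtr1 (41.6 FPKM), Amotl2 (32.6), Lats1 (13.3), Tead1 (12.2), Yap1 (10.6), Lats2 (8.46), Tead3 (8.10), Ankrd1 (5.90) and Tead4 (0.235). Wwtr1 lay above Amotl2, Amotl2 above Lats1, Yap1 above Lats2 and Ankrd1 above Tead4 in 8 of 8 libraries. The other neighbours were not set apart by their spread: Lats1 lay above Tead1, Tead1 above Yap1 and Tead3 above Ankrd1 in 6 libraries each, and Lats2 above Tead3 in 5. Wwtr1 exceeded the mean level of 92.5% of the tested genes, and Amotl2 that of 90.2%.

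**Figure D1:**
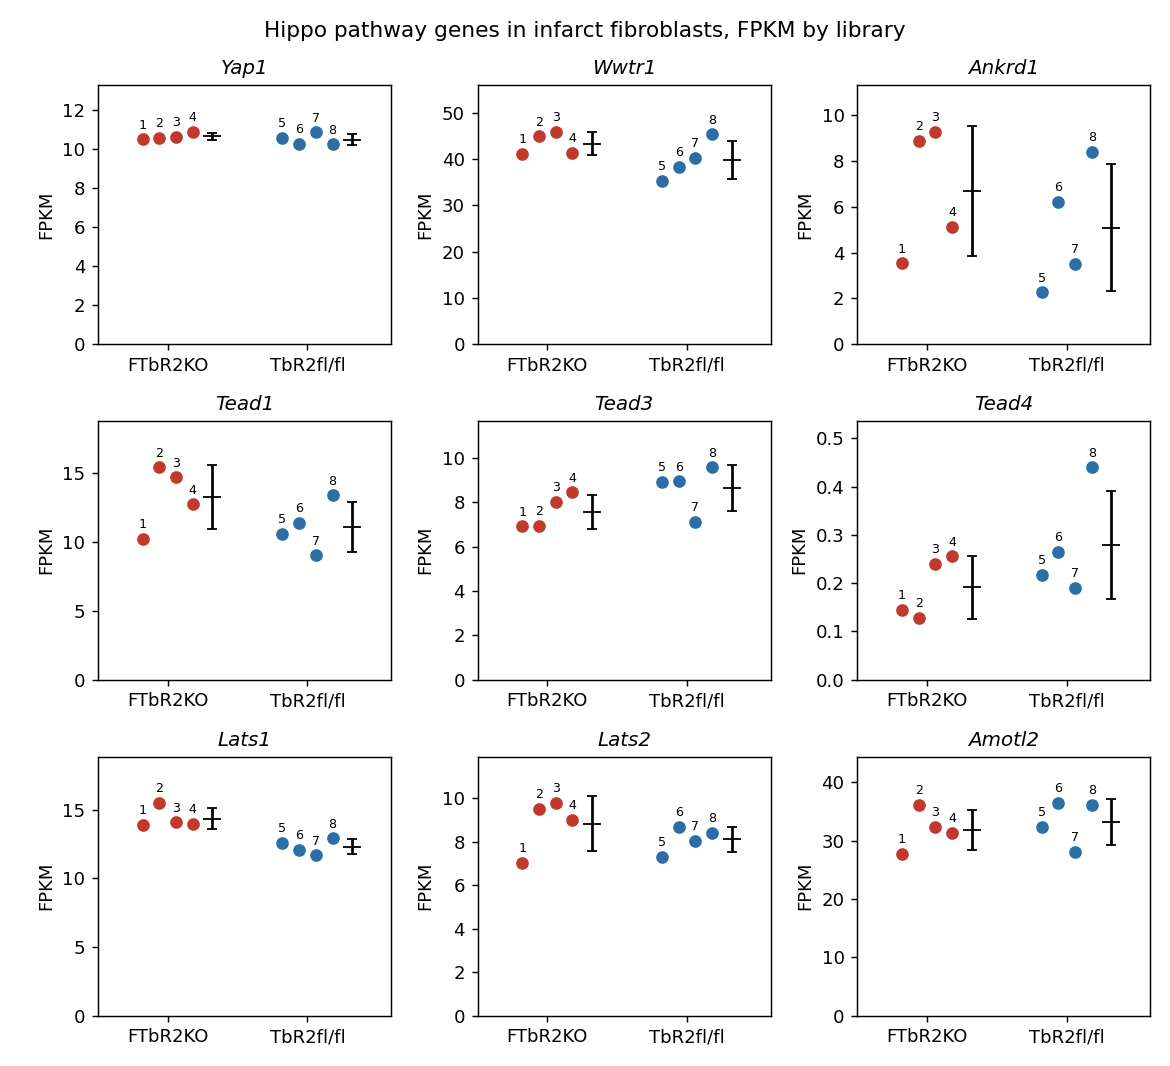
FPKM of each of the 9 genes (vertical axes, from 0) in the 4 libraries labelled FTbR2KO (red) and the 4 TbR2fl/fl controls (blue), with the library number at each point and the mean ± SD beside each group. Yap1 stays between 10.2 and 10.9 FPKM, Ankrd1 runs from 2.26 to 9.29, and only for Lats1 do all 4 red points lie above all blue points.

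Yap1, which encodes the coactivator YAP, was almost level across the libraries. It measured 10.5, 10.6, 10.6 and 10.9 FPKM in FTbR2KO 1 to 4 and 10.6, 10.3, 10.8 and 10.2 in TbR2fl/fl 5 to 8. The groups overlapped, and the highest library exceeded the lowest by a factor of 1.06. The means were 10.6 ± 0.174 against 10.5 ± 0.288 FPKM (SD, n = 4 each), a log2 fold change of 0.021 (SE 0.061, limma adjusted p = 0.939). The 95% interval of the difference, -0.12 to 0.16, corresponds to 0.922 to 1.12-fold on the scale of FPKM + 1. Only 3 of the 11667 tested genes had a smaller SD of log2(FPKM + 1) over the 8 libraries than Yap1 (0.030, against a median of 0.163). Its coefficient of variation of 2.25% was close to the 2.15% expected from counting 1686 to 2873 reads per library alone. Both measures of spread hold for the deposited FPKM scaling only. The library totals behind that scaling exceeded the recovered reads for FTbR2KO 1 (17.4 against 16.1 M) and TbR2fl/fl 5 (29.4 against 27.7 M). For TbR2fl/fl 7 the total lay below them (20.5 against 21.2 M). The spread of Yap1 scaled to the recovered reads was not calculated. Yap1 lies on chromosome 9 from 7931999 to 8004596, minus strand.

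Wwtr1, the gene of TAZ, was the more abundant of the 2 coactivator transcripts in every library. It measured 41.2, 44.9, 45.9 and 41.3 FPKM in FTbR2KO 1 to 4 and 35.4, 38.3, 40.2 and 45.3 in TbR2fl/fl 5 to 8. TbR2fl/fl 5 was lowest, and TbR2fl/fl 8 lay among the highest libraries labelled FTbR2KO, so the groups overlapped. The means were 43.3 ± 2.44 against 39.8 ± 4.19 FPKM (n = 4 each; log2 fold change 0.12, SE 0.096, limma adjusted p = 0.728). The ratio of Wwtr1 to Yap1 within a library ran from 3.35 (TbR2fl/fl 5) to 4.43 (TbR2fl/fl 8). Its mean was 4.07 ± 0.255 in the libraries labelled FTbR2KO and 3.80 ± 0.453 in the controls (exact two-sided permutation p = 0.314, adjusted over 2 ratios 0.457; 4 against 4 allows no p below 0.0286). Across the 8 libraries Wwtr1 moved with the summed level of 11 endothelial markers (r = 0.93; 90.2 to 104 FPKM for FTbR2KO 1 to 4, 75.6 to 101 for TbR2fl/fl 5 to 8, none at 0 in all libraries), whose part in its level was not tested. Eng (52.0 to 81.8 FPKM) and Tek (15.1 to 26.8) carried nearly all of that sum, and Pecam1 stayed at 0.425 to 1.17 FPKM. Wwtr1 lies on chromosome 3 from 57455649 to 57575910, minus strand.

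**Figure D2:**
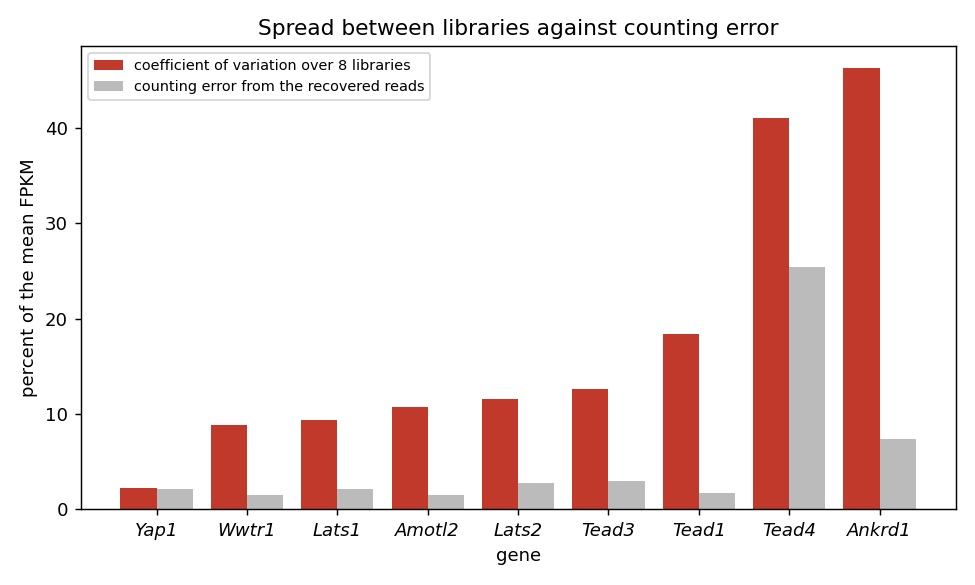
Coefficient of variation of FPKM over the 8 libraries (red bars) beside the counting error expected from the reads behind each gene (grey bars), both in percent of the mean, for the 9 genes on the horizontal axis. The bars of Yap1 are nearly equal (2.25% and 2.15%), whereas Ankrd1 varied by 46.3% with a counting error of 7.33%.

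Of the TEAD genes, which encode the factors that carry YAP and TAZ to DNA, Tead1 was the most abundant in every library and Tead4 was scarce. Tead1 measured 10.3, 15.4, 14.7 and 12.7 FPKM in FTbR2KO 1 to 4 and 10.6, 11.4, 9.03 and 13.4 in TbR2fl/fl 5 to 8. FTbR2KO 2 and 3 lay above all controls and FTbR2KO 1 among them. The means were 13.3 ± 2.31 against 11.1 ± 1.81 FPKM (n = 4 each; log2 fold change 0.24, SE 0.14, limma adjusted p = 0.654). Tead3 measured 6.91, 6.93, 8.00 and 8.44 FPKM in FTbR2KO 1 to 4 and 8.91, 8.93, 7.12 and 9.56 in TbR2fl/fl 5 to 8. All controls but TbR2fl/fl 7 lay above every library labelled FTbR2KO. Its means were 7.57 ± 0.770 against 8.63 ± 1.05 FPKM (n = 4 each; log2 fold change -0.17, SE 0.10, limma adjusted p = 0.654). Tead3 also followed depth, with a Pearson's r of 0.92 between its log2 level and the reads per library over the 8 libraries, and the part of depth in its difference was not tested. Tead4 was found at 0.128 to 0.255 FPKM under the FTbR2KO label and 0.190 to 0.439 among the controls, from 8 to 45 reads per library, with overlapping groups (exact permutation p = 0.229). Tead2, the fourth TEAD gene and no member of the 9, measured 4.71 ± 0.410 against 6.17 ± 0.850 FPKM (n = 4 each; log2 fold change -0.32, SE 0.099, limma adjusted p = 0.571). Only its lowest control, TbR2fl/fl 8 (5.05 FPKM), fell within the range of the libraries labelled FTbR2KO (4.21 to 5.18). The deposited table places Tead1 on chromosome 7 (112679318 to 112906807, plus strand), Tead3 on chromosome 17 (28331671 to 28350817, minus strand) and Tead4 on chromosome 6 (128224288 to 128300823, minus strand).

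Lats1, a kinase that phosphorylates YAP and TAZ, was the only member whose groups did not overlap. It measured 13.9, 15.5, 14.1 and 13.9 FPKM in FTbR2KO 1 to 4 and 12.6, 12.1, 11.7 and 12.9 in TbR2fl/fl 5 to 8. The lowest of FTbR2KO 1 to 4 exceeded the highest control, which was also true of 2.52% of all genes tested (4.41% for no overlap in either direction) and of 6.68% of those in the longest length class, to which Lats1 belongs with 7297 bases. The means were 14.3 ± 0.748 against 12.3 ± 0.544 FPKM (n = 4 each), a ratio of 1.17. The log2 fold change was 0.21 with an SE of 0.070 (95% interval 0.048 to 0.36) and a limma adjusted p of 0.571. By exact permutation p = 0.0286, which no split of 4 against 4 can go below. After a correction of each library for gene length the log2 fold change was 0.16 (limma adjusted p = 0.740). Its level also moved with the summed level of 11 epicardial markers (r = 0.78 over the 8 libraries; 77.1 to 126 FPKM for FTbR2KO 1 to 4, 48.6 to 94.2 for TbR2fl/fl 5 to 8, none at 0 in all libraries), of which Aldh1a2 alone gave 31.9 to 87.8 FPKM. It moved against the summed level of the 11 fibroblast markers (r = -0.67; 11252 to 13622 against 13121 to 14648 FPKM) and against depth (r = -0.63). Col1a1 (3496 to 5338 FPKM), Col3a1 (3237 to 4548) and Col1a2 (1337 to 1998) carried most of the fibroblast sum. Col1a1 and Col1a2 lay lower without overlap under the FTbR2KO label, as did 1.89% of all genes tested. The groups overlapped for the other fibroblast markers, Pdgfra among them. The part of these sums and of depth in the difference of Lats1 was not tested. Lats1 lies on chromosome 10 from 7681214 to 7716460, plus strand.

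Lats2, its paralogue and itself a target of YAP, measured 7.01, 9.51, 9.76 and 9.01 FPKM in FTbR2KO 1 to 4 and 7.30, 8.67, 8.04 and 8.38 in TbR2fl/fl 5 to 8. FTbR2KO 2 to 4 lay above all controls and FTbR2KO 1 below them all. The means were 8.82 ± 1.25 against 8.10 ± 0.590 FPKM (n = 4 each; log2 fold change 0.10, SE 0.10, limma adjusted p = 0.786). The log2 fold change was 0.056 without FTbR2KO 3, 0.060 without TbR2fl/fl 5 and 0.20 without FTbR2KO 1. Lats1 exceeded Lats2 in every library, and the ratio of Lats2 to Lats1 was 0.504 to 0.719 (mean 0.615 ± 0.0807 against 0.660 ± 0.0595; exact permutation p = 0.457, adjusted over 2 ratios 0.457). Lats2 lies on chromosome 14 from 57689662 to 57758388, minus strand.

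Amotl2, which encodes an angiomotin-like scaffold that holds YAP at junctions and is a YAP target, was the second most abundant member. It measured 27.7, 36.1, 32.4 and 31.3 FPKM in FTbR2KO 1 to 4 and 32.4, 36.4, 28.1 and 36.2 in TbR2fl/fl 5 to 8. Both groups covered nearly the same range. The means were 31.9 ± 3.43 against 33.3 ± 3.93 FPKM (n = 4 each; log2 fold change -0.058, SE 0.11, limma adjusted p = 0.901). Its sign turned without FTbR2KO 1 (0.0043) and after conversion to TPM (0.11). That conversion shifted the median of all genes to 0.15, below which Amotl2 still lay. Amotl2 lies on chromosome 9 from 102716672 to 102733418, plus strand.

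Ankrd1, which encodes a cardiac ankyrin repeat protein and is a standard readout of YAP and TAZ, varied most among the members, and the variation ran across genotype. It measured 3.52, 8.90, 9.29 and 5.11 FPKM in FTbR2KO 1 to 4 and 2.26, 6.21, 3.49 and 8.42 in TbR2fl/fl 5 to 8. Each group held libraries near 9 or 8 FPKM and libraries below 4 FPKM, a 4.12-fold range over all 8. The means were 6.71 ± 2.84 against 5.09 ± 2.77 FPKM (n = 4 each; log2 fold change 0.38, SE 0.36, limma adjusted p = 0.777; exact permutation p = 0.429). The 95% interval, -0.44 to 1.20, spans 0.735 to 2.29-fold on the scale of FPKM + 1. Its SD of log2(FPKM + 1) exceeded that of 97.9% of the tested genes, on 108 to 423 reads per library. Ankrd1 lies on chromosome 19 from 36111965 to 36119844, minus strand.

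Ankrd1 is also abundant in cardiomyocytes, so markers of these cells were set beside it. The summed level of the 17 cardiomyocyte markers was 4.40 to 8.28 FPKM in FTbR2KO 1 to 4 and 5.78 to 8.72 in TbR2fl/fl 5 to 8. None was at 0 in all libraries, and the heavy chain gene Myh6 stayed at 0.15 to 0.37 FPKM and the titin gene Ttn at or below 0.0092. Actc1 (0.392 to 2.81 FPKM) and Tnnc1 (0.393 to 2.02) had the highest means of the 17. Ankrd1 alone had a level similar to that of the 17 markers together, and the part of cardiomyocytes in its level was not tested. The sum followed Ankrd1 over the 8 libraries with a Pearson's r of 0.69 on log2 scales. The 11 pericyte and smooth muscle markers followed it more closely (r = 0.89), with sums of 84.0 to 133 FPKM in FTbR2KO 1 to 4 and 93.7 to 126 in TbR2fl/fl 5 to 8. None of these 11 was at 0. Smtn (24.4 to 33.8 FPKM), Notch3 (18.5 to 29.6), Rgs5 (12.9 to 32.3) and Mcam (5.67 to 19.1) carried most of the sum. The smooth muscle gene Myh11 stayed at 1.09 to 2.29 FPKM. The same sum followed Tead1 (r = 0.90), Lats2 (0.85) and Amotl2 (0.83), but not Yap1 (-0.30). Lats2 followed the cardiomyocyte sum more closely (r = 0.89), and Ankrd1 also followed the endothelial sum (r = 0.79). The part of these cell types in the spread of Ankrd1 and of these members was not tested.

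Several members rose and fell together from library to library. Members also followed the main axis of variation over all genes, to differing degrees. The r with that axis was 0.78 for Ankrd1, 0.74 for Lats2, 0.64 for Amotl2, 0.53 for Wwtr1 and 0.52 for Tead1. It was 0.43 for Tead3, -0.046 for Lats1 and -0.24 for Yap1. The part of this axis in the likeness of members was not tested. Over the 8 libraries, which share depth and cell makeup, Pearson's r of log2(FPKM + 1) with Ankrd1 was 0.85 for Tead1, 0.84 for Wwtr1, 0.84 for Lats2, 0.64 for Amotl2, 0.49 for Lats1, 0.10 for Tead3 and -0.32 for Yap1. After each group's mean was removed these values were 0.85, 0.84, 0.82, 0.77, 0.45, 0.34 and -0.51, so the pattern lay within the genotypes as well as across them. Without FTbR2KO 1 and TbR2fl/fl 5, the libraries that stood apart over all genes, r with Ankrd1 was 0.91 for Tead1, 0.76 for Wwtr1, 0.70 for Lats2 and 0.75 for Amotl2 (6 libraries). Ctgf, the matricellular growth factor gene also called Ccn2 and a further YAP and TAZ target, measured 543, 992, 1092 and 889.6 FPKM in FTbR2KO 1 to 4 and 528, 988, 718 and 1336 in TbR2fl/fl 5 to 8. It was low in the same libraries as Ankrd1 (r = 0.92, and 0.85 without those 2 libraries). Cyr61, the related gene also called Ccn1, did not follow Ankrd1 (r = 0.21, and -0.79 without those 2 libraries). It measured 570, 741, 656 and 791 FPKM in FTbR2KO 1 to 4 and 664, 815, 815 and 737 in TbR2fl/fl 5 to 8.

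**Figure D3:**
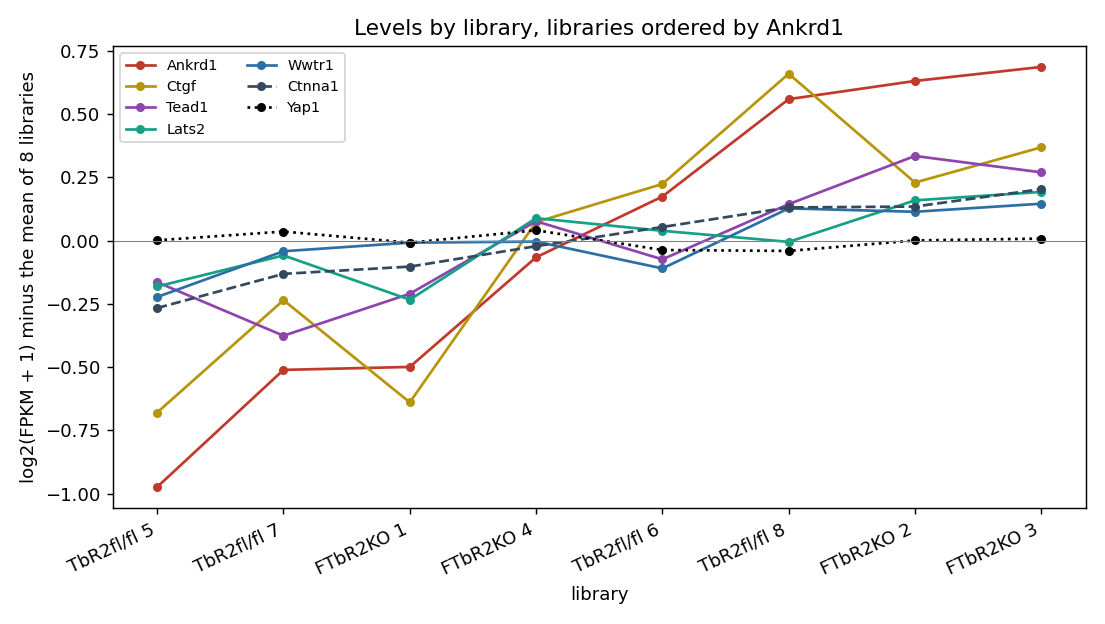
log2(FPKM + 1) of 7 genes minus each gene's mean over the 8 libraries (vertical axis), with the libraries ordered from the lowest to the highest Ankrd1 (horizontal axis). Libraries of both genotypes lie at either end of the order, Ctnna1 climbs with Ankrd1, and the dotted line of Yap1 stays near 0.

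Among 5993 named genes with a mean of at least 5 FPKM, those most like Ankrd1 over the 8 libraries were Ctnna1 (Pearson's r = 0.99), Psmd1 (0.98) and Riok3 (0.98). Ctnna1 encodes α-catenin, a junction protein known to bind YAP, and ran from 51.0 to 71.0 FPKM, a far smaller range than that of Ankrd1. Its r with Ankrd1 was 0.99 within groups and 0.99 without FTbR2KO 1 and TbR2fl/fl 5. The genes most like Wwtr1 were Sacm1l (r = 0.97), Otud6b (0.95) and Cyfip1 (0.95). Those most like Yap1 were Zbtb4 (0.92), Mgat4b (0.91) and Syt11 (0.91). The spread of Yap1 that these values follow is close in size to its counting error, and Yap1 moved against the summed level of 13 macrophage markers (r = -0.81; 8.84 to 13.2 FPKM for FTbR2KO 1 to 4, 10.5 to 13.7 for TbR2fl/fl 5 to 8, none at 0 in all libraries), whose part was not tested. Lyz2 (2.45 to 5.60 FPKM), Cd68 (2.01 to 7.15) and Cd14 (0.780 to 2.14) carried most of the macrophage sum. Ptprc stayed at or below 0.0346 FPKM. With 8 libraries and so many candidates, high values of r arise easily, and they are given as a description.

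**Figure D4:**
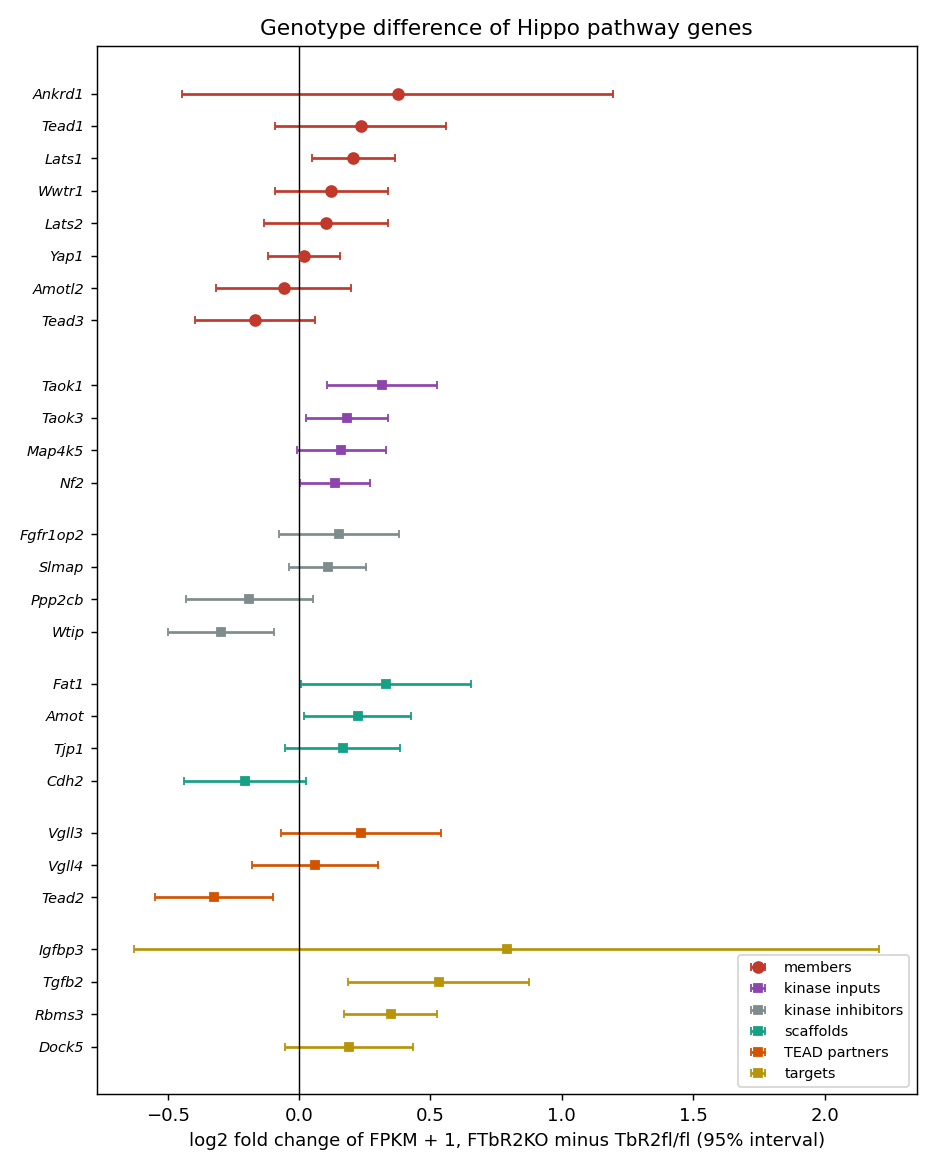
log2 fold change of FPKM + 1 (horizontal axis, 95% interval as bars) between the libraries labelled FTbR2KO and the controls, for the 8 tested members (red circles) and up to 4 genes with the smallest p from each of 5 lists of other Hippo genes (squares, by list). Most intervals are wider than the change; those of Ankrd1 and Igfbp3 are the widest.

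Other genes of the pathway did not pass the threshold either. Upstream kinases and adaptors of the Hippo core formed a list of 21, of which 18 were tested, 0 passed limma's adjusted threshold in either direction, 14 lay above 0 and 4 below, with a median log2 fold change of 0.11. At an unadjusted p under 0.05 there were 3, all higher, where the share of all genes was 3.74%. In the longest length class, to which all 3 belong, that share was 8.67%. The groups did not overlap for 3 of the 18, again higher, against 2.52% of all genes and 6.68% of the longest length class. The list's median length was 6736 bases, which falls in that class. There 74.0% of genes lay above 0, with a median log2 fold change of 0.069, against 48.8% of all genes. Nf2, which encodes the tumour suppressor merlin at the head of the cascade, measured 9.88, 9.67, 9.82 and 9.55 FPKM in FTbR2KO 1 to 4 and 8.86, 8.62, 8.57 and 9.003 in TbR2fl/fl 5 to 8. Every library labelled FTbR2KO lay above every control, and both groups were tight (9.73 ± 0.151 against 8.76 ± 0.204 FPKM, n = 4 each; log2 fold change 0.14, SE 0.059, limma adjusted p = 0.580). The other list members without overlap were the kinase genes Taok3 (3.66 ± 0.129 against 3.11 ± 0.237 FPKM) and Map4k5 (6.81 ± 0.459 against 5.99 ± 0.455 FPKM). Taok1, a kinase that activates the MST kinases, had the largest log2 fold change of the list (0.32, SE 0.093, limma adjusted p = 0.571), with overlapping groups. The MST kinase genes Stk3 and Stk4 measured 4.57 ± 0.745 against 3.75 ± 0.403 and 4.52 ± 0.294 against 4.12 ± 0.411 FPKM, both with overlap. Stk4 shares its locus with Tomm34 (8.96 FPKM) on the opposite strand, and reads of the pair cannot be told apart. The same limit holds for Taok1 with Abhd15 (2.05 FPKM) and Map4k5 with Gm18030 (1.15). Among genes of the lists below it holds for Fgfr1op2 with Ints13 (3.37) and Rbms3 with Gm17396 (1.24).

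Genes whose products hold the kinases down (the STRIPAK phosphatase complex and the Ajuba family) lay on both sides of 0: of 18, 17 were tested, 11 lay above 0 and 6 below, 0 passed and the median was 0.013. At an unadjusted p under 0.05 there was 1, lower, against 4.87% of all genes in that direction. That gene was Wtip, an Ajuba family member that restrains LATS. It measured 17.1, 17.5, 18.5 and 21.4 FPKM in FTbR2KO 1 to 4 and 21.7, 24.4, 23.7 and 22.2 in TbR2fl/fl 5 to 8. All libraries labelled FTbR2KO lay below all controls, although FTbR2KO 4 came close to TbR2fl/fl 5 (log2 fold change -0.30, SE 0.089, limma adjusted p = 0.571). The same was true of 1.89% of all genes tested and of 2.74% of the shortest length class, to which Wtip belongs with 2383 bases. Slmap, a STRIPAK adaptor, lay higher without overlap (10.3 ± 0.460 against 9.44 ± 0.311 FPKM), as did 2.52% of all genes and 6.68% of the longest length class, to which it belongs. Ppp2cb, a catalytic subunit of the phosphatase, differed by -0.19 on the log2 scale (SE 0.11) and Fgfr1op2, another subunit, by 0.15 (SE 0.10).

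Of 14 junction and polarity genes whose products bind YAP, TAZ or LATS, all were tested, 0 passed, 8 lay above 0 and 6 below, and the median was 0.031. At an unadjusted p under 0.05 there were 2, both higher, against 3.74% of all genes and 8.67% of the longest length class (the list's median length was 8234 bases). The groups did not overlap for 1, against 2.52% and 6.68%. The 2 genes were the angiomotin gene Amot (1.48 ± 0.141 against 1.12 ± 0.121 FPKM, without overlap; log2 fold change 0.22, and 0.41 with voom, which adds less to low values) and the giant cadherin gene Fat1 (56.6 ± 10.1 against 44.5 ± 5.74 FPKM, with overlap). The N-cadherin gene Cdh2 differed by -0.20 on the log2 scale (SE 0.10) and Tjp1, which encodes the junction protein ZO-1, 0.17 (SE 0.097). Of 5 TEAD partners 3 were tested, 0 passed, 2 lay above 0 and 1 below with a median of 0.060, and Tead2 alone had an unadjusted p under 0.05, lower, where the share of all genes was 4.87%. The others were the cofactor genes Vgll3 (23.7 ± 3.63 against 20.0 ± 2.79 FPKM) and Vgll4 (9.78 ± 0.382 against 9.42 ± 1.48 FPKM), both with overlap. Vgll4 is a repressor of YAP-dependent transcription. Vgll1 was listed at 0 in every library and Vgll2 at 0 in all but TbR2fl/fl 5 (0.0619 FPKM).

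The list of 22 YAP and TAZ targets includes Amotl2, Lats2 and Ankrd1. Of the 20 tested 0 passed, 13 lay above 0 and 7 below, and the median log2 fold change was 0.028. Ctgf measured 879 ± 239 against 892 ± 351 FPKM and Cyr61 689.7 ± 97.2 against 758 ± 72.4 FPKM, so both differences were smaller than the spread within groups. At an unadjusted p under 0.05 there were 2 targets, Rbms3 and Tgfb2, both higher, against 3.74% of all genes in that direction. The share was 8.67% in the longest length class, to which Rbms3 but not Tgfb2 belongs. The groups did not overlap for 1, higher, against 2.52% of all genes and 6.68% of the longest length class, to which it belongs. Rbms3, an RNA-binding protein gene, measured 12.4, 13.0, 11.4 and 10.8 FPKM in FTbR2KO 1 to 4 and 9.63, 8.80, 9.36 and 8.67 in TbR2fl/fl 5 to 8, without overlap (log2 fold change 0.35, SE 0.078, limma adjusted p = 0.571). Tgfb2, a TGF-β ligand gene, measured 15.5 ± 3.47 against 10.3 ± 1.08 FPKM, with FTbR2KO 4 among the controls. The value was 0.19 (SE 0.11) for Dock5, a Rac activator gene. Igfbp3, which encodes a binding protein for insulin-like growth factors, ran from 15.9 to 171 FPKM across libraries of both groups (log2 fold change 0.79, SE 0.63).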

How the data were processed

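The authors deposited gene-level FPKM for 8 libraries, 1 column each, with gene names, lengths and coordinates per the file headers. The programs that appear in the submitters' processing notes without their roles are HTSeq 0.6.1, Cufflinks 2.1.1, TopHat2 2.0 and CASAVA. The same notes give GRCm38.p6 and mm10 as builds. No source used here states the strand setting, and reads of overlapping genes cannot be told apart: Yap1, Wwtr1, Tead1, Tead4 and Lats2 each overlap another listed gene, the most abundant at 2.24 FPKM. Per the labels' protocols, poly(A) RNA from Trizol extracts was made into libraries with a NEBNext Ultra kit. Multiplied by gene length, FPKM fell on whole steps for 100% of nonzero values (within 0.01), which gave the reads behind each value and the depth. Counting errors given cover counting only.

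Genes reaching 1 FPKM in 4 or more samples were tested on log2(FPKM + 1) with limma 3.58.1 in R 4.3.3 (variance trend, no covariate, two-sided, Benjamini-Hochberg over 11667 genes, threshold 0.05). Single values were compared by exact permutation in scipy 1.17.1. On simulated reads (11525 genes, 5 runs) the test recovered 58.3% of genes changed 1.5-fold and 93.8% of those changed 2-fold. False calls made up 7.13%, and genes were drawn as independent. Over the 5 runs 331 genes were changed 1.5-fold and 324 each 2-fold and 4-fold, whereas 2 genes passed in the deposited data. So many changed genes ease the adjusted threshold, and each simulated gene's variance was set by its level alone. These shares can therefore overstate what the test would find in the deposited data. Members and lists were chosen with earlier results of these data known. Named were all members, up to 4 genes with the smallest p per list, Ctgf, Cyr61, Stk3, Stk4, Nf2, Tead2, Vgll4 and Tgfbr2, and the 3 genes most like Yap1, Wwtr1 and Ankrd1. Ctnna1 is among the last. Promoter sequences are RefSeq's (GRCm38.p6). In GENCODE M21 (GRCm38), 98.3% of the shared genes had the deposited coordinates.

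Alternatives were a pseudocount of 0.1, no filter, a filter at 5 FPKM, median-of-ratios scaling, quantile normalization, TPM, array weights, covariates for cardiomyocyte and macrophage markers, and leaving out libraries. Limma's voom on recovered reads and a gene length correction were chosen after seeing the data. A further list of pathway genes is not reported here.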

Additional observations from a re-analysis of the deposited data

Results flagged for a closer look

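In 78 groups of 4 libraries (39 genes and ratios in 2 genotypes), 6 had a library set far from the other 3, where chance alone gives about 1 in 20. Among the members this was Lats1 in FTbR2KO 2, at 15.5 FPKM with FTbR2KO 1, 3 and 4 at 13.9 to 14.1. Slmap was high in FTbR2KO 2 (10.9 FPKM against 9.99 to 10.1) and in TbR2fl/fl 7 (9.90 against 9.25 to 9.30). Fgfr1op2 was low in TbR2fl/fl 5 (11.2 FPKM against 13.8 to 14.2). Mkl2 was low in FTbR2KO 4 (3.30 FPKM against 3.66 to 3.72) and high in TbR2fl/fl 5 (4.12 against 2.72 to 2.79).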

How the results depend on the processing

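In all 20 alternatives 0 Hippo members passed limma's adjusted threshold. Wwtr1, Tead1, Lats1, Lats2 and Ankrd1 lay above 0 and Tead3 below 0 in each. The members at an unadjusted p under 0.05 numbered 1 to 4, the most after conversion to TPM, which shifted the median of all genes to 0.15. Yap1 turned to -0.047 after the gene length correction. Amotl2 turned to 0.11 with TPM and 0.044 with the macrophage covariate, and ran from -0.14 to 0.0043 with 1 library left out, above 0 without FTbR2KO 1 only. Cyr61 turned to 0.026 with TPM, Vgll4 to -0.013 with the macrophage covariate and Ctgf to -0.066 with array weights. With 1 library left out Ctgf ran from -0.21 to 0.24 (below 0 without FTbR2KO 2, 3 or 4 or TbR2fl/fl 5 or 7) and Vgll4 from -0.041 (without TbR2fl/fl 8) to 0.11. Ankrd1 ran from 0.11 (without TbR2fl/fl 5) to 0.62 (without TbR2fl/fl 8) and was 0.74 with the macrophage covariate. The log2 ratio of Lats2 to Lats1 differed by -0.17 (without FTbR2KO 3) to -0.015 (without FTbR2KO 1). Over all genes the calls numbered 1 with the filter at 5 FPKM, which removes Prm1, and 2 to 8 with 1 library left out (8 without FTbR2KO 4). The causes were not tested. No paired analysis was possible because the groups share no sample numbers. The planned edgeR test was not run because FPKM was the deposited unit. Limma's voom on the reads recovered from FPKM took its place. Depth limits Tead4 most, with 8 to 45 reads per library.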
